A study of Rattus norvegicus with 17 samples.

Results

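Jag1, Cxcl12, Cxcr4, Aplnr and Cpe are 5 rat genes of vessel-to-vessel signalling, of which the first 4 are known for their uneven use by arterial and venous endothelium. They were followed through the inner lining of 4 vessel regions around a surgically made arteriovenous fistula. Members were chosen by name: every array probe with a deposited normalized value whose RefSeq accession belongs to one of these genes was kept, which gave 6 probes of 5 genes among 9879 probes with a value. Cxcl12 had 2 probes and each of the others 1. The array carries another Cxcr4 probe, which is not analysed here.

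Jag1 is a membrane-bound ligand of Notch receptors, whose signal between neighbouring endothelial and smooth muscle cells maintains arterial character. Cxcl12 is a secreted chemokine, made by stromal cells and by arterial endothelium, that draws cells carrying its receptor Cxcr4. Cxcr4 is known from mouse development for its place on arterial endothelium. Aplnr is the receptor for the apelin and elabela peptides and marks venous and sprouting endothelium in the mouse embryo. Cpe, carboxypeptidase E, trims basic residues from the ends of peptide precursors and is best known from neuroendocrine cells.

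Each of the 17 arrays held RNA of laser-captured luminal endothelium from 1 region, taken 13 to 14 days after surgery in a study of 6 rats. The superficial epigastric vein had been joined to the common femoral artery and also tied off further out, so that only its near part carried arterial flow. The stenotic side branch (n = 3) was a narrowed branch of this vein under arterial flow, and the NIH vein (n = 5) was the main vein, also under arterial flow and showing neointimal hyperplasia, a cellular thickening of the inner wall. The common femoral artery (n = 3) of operated rats showed no pathology, nor did the venous-flow vein (n = 6), which kept venous flow beyond the tie. The source labels name ligation as the surgery of the venous-flow veins and the fistula as that of all other groups, so that the surgery named and the vessel cannot be told apart. Which rat each region came from is not stated in the labels. The sample titles give each array its own number, and whether these numbers name rats is not stated either. If the 17 regions all came from the 6 rats, some share a rat. The p-values over regions can then be too small or too large, as rats may be shared within or between groups.

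Facts of the files touch every value below. In the value table, 12 of the 17 arrays stand under another sample's name than in the scanner files, as the identical ranks of their spots show; the 5 NIH vein arrays match their own columns. The arrays filed as stenotic side branches and as femoral arteries carry the ranks of venous-flow vein columns, and those filed as venous-flow veins carry the ranks of stenotic side branch and femoral artery columns. Differences are therefore given first by the scanner files and then by the value table; correlations between genes use the scanner files. On 11 arrays, all but the 5 NIH veins and stenotic side branch 1, the background of every spot with a value is the average of that on 2 other arrays, to within 0.001 intensity units, so background and group are partly tied. The arrays' median signal over background lay between 28.5 and 80.9 intensity units. Levels below are log2 signals after background correction and quantile normalization; their floor is 5.65 and their median 6.12, and 52.4% of all probe values lie within 0.5 of the floor. Of 16 endothelial marker genes only Kdr, a VEGF receptor, had a value, with a median log2 level of 6.86. This marker list could thus check the endothelial label by 1 gene alone.

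Promoter sequences of 4 of the 5 genes were found in the RefSeq set (GRCr8; 250 bases before to 50 after the gene start), and that of Aplnr was not among them. The chemokine and its receptor are shown because one was called between vessels and the other lay near the floor. Capitals mark matches on either strand to TGGGAA, the core bound by the Notch partner RBPJ, or to CACCC, a core bound by the flow-responsive KLF factors; ACGTG, the core of the hypoxia factor HIF, was searched as well.
Cxcl12, chr4:152060531-152060830, + strand: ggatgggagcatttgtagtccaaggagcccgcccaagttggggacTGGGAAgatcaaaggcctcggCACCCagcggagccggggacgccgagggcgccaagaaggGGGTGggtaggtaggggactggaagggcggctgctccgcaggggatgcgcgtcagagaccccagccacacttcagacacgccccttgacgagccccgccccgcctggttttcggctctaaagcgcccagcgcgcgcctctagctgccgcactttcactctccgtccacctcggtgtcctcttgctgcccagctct
Cxcr4, chr13:42634239-42634538, − strand: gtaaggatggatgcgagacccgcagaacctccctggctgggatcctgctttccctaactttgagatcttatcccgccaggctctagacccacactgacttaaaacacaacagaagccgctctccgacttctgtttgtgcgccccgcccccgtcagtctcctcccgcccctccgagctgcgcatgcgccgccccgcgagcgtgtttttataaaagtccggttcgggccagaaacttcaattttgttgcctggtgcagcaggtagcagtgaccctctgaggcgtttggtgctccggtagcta
In the Cxcl12 window TGGGAA begins at -205 and CACCC or its reverse at -184 and -145, counted from -1 as the base before the start, and the matches do not overlap. The Cxcr4 window and that of Jag1 hold none of the 3 motifs. In the Cpe window ACGTG begins at -171 and CACCC or its reverse at -42 and 36. Of 33469 promoters of this length, 25.7% hold TGGGAA, 54.9% CACCC and 19.3% ACGTG, so these matches are common letters and describe the windows only.

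Of the 5 genes only Cxcl12 was called (adjusted p under 0.05) in any comparison, by 1 of its 2 probes. With samples as in the scanner files this probe (NM_001033883) stood higher in the stenotic side branch, by 1.39 ± 0.22 on the log2 scale (SE) over the femoral artery and by 1.04 ± 0.19 over the venous-flow vein. With samples as in the value table no member was called in any of the 6 comparisons, of which 3 had 0 called probes (stenotic side branch against venous-flow vein 0.172%, against NIH vein 0.283%, against femoral artery 0.192%). By the scanner files Jag1 had its highest means in the 2 vein groups under arterial flow, and Cxcr4 lay within 0.5 of the floor on 16 of 17 arrays.

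**Figure D1:**
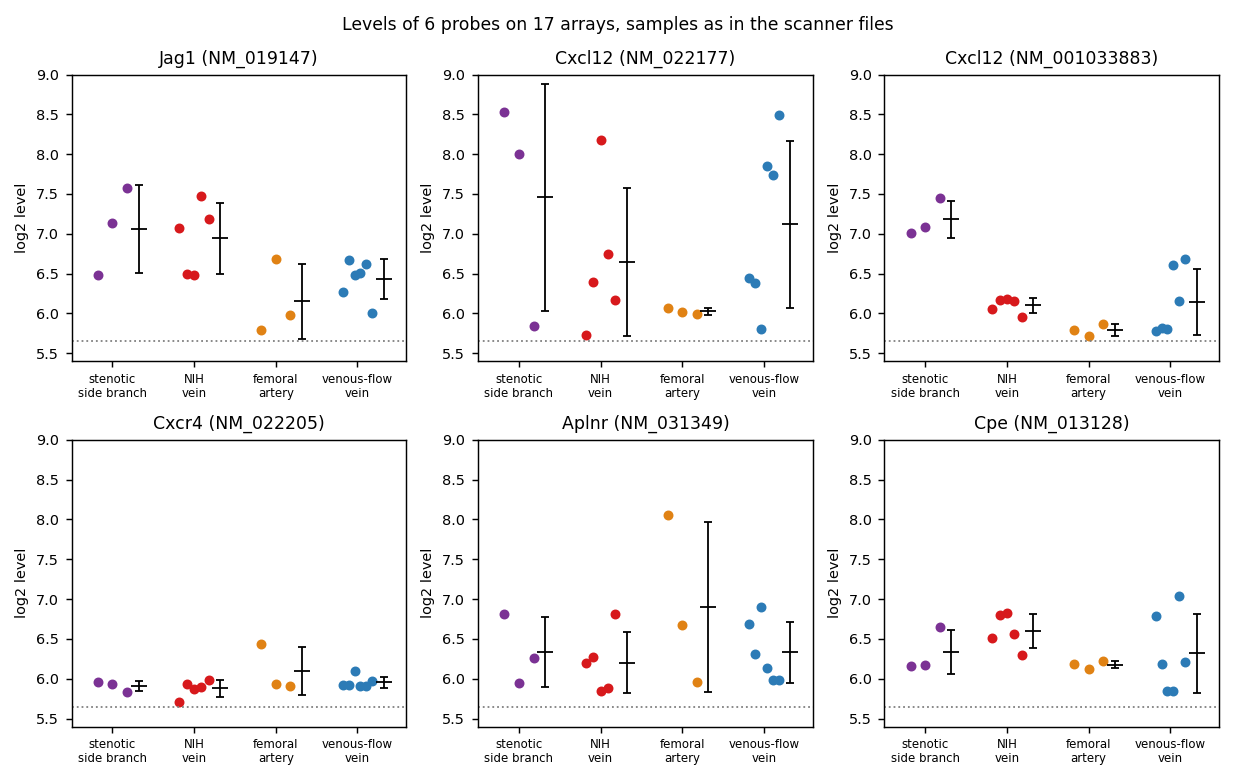
Log2 levels of the 6 probes (vertical axes) by vessel group (horizontal axes), samples as in the scanner files; points are arrays, bars mean ± SD, and the dotted line is the floor of 5.65. The 3 stenotic side branches stand above every other array for Cxcl12 NM_001033883, and the groups of Cxcr4 lie on top of each other.

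The NM_001033883 probe of Cxcl12 read 7.01, 7.09 and 7.45 in the stenotic side branches. NIH veins 1 to 5 read 6.06, 6.17, 6.18, 6.16 and 5.95, and the femoral arteries 5.80, 5.72 and 5.87. Venous-flow veins ran from 5.78 to 6.68 with a median of 5.99. All 3 stenotic side branches lay above all 14 other arrays, a pattern shared by 46 of 9879 probes (0.466%); 1.13%, 15.8% and 7% of probes had all stenotic side branches above all NIH veins, all femoral arteries and all venous-flow veins. The group means were 7.18 ± 0.23 in the stenotic side branch, 6.10 ± 0.10 in the NIH vein, 5.80 ± 0.07 in the femoral artery and 6.14 ± 0.41 in the venous-flow vein (SD).

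Cxcl12 NM_001033883 passed the threshold against the femoral artery (95% interval 0.92 to 1.86; adjusted p = 0.0181 by limma with Benjamini-Hochberg adjustment over all probes), where 184 probes, or 1.86%, were called. It passed against the venous-flow vein too (0.63 to 1.45; adjusted p = 0.0278 by limma), where 40 probes, or 0.405%, were called. Against the NIH vein the difference of 1.08 ± 0.20 (0.66 to 1.5) had an adjusted p of 0.0638 by limma, with 9 probes, or 0.0911%, called. The NIH veins lay above all 3 arteries, as for 9.32% of probes, with a difference of 0.31 (-0.11 to 0.73; adjusted p = 0.338). In unnormalized signal above background the same probe gave 71.5, 131.9 and 129.5 intensity units in stenotic side branches 1 to 3. The NIH veins gave 48.6 to 87.8, the femoral arteries 25.2 to 43.1 and the venous-flow veins 26.7 to 60.6, so that only stenotic side branch 1 overlapped other arrays on this scale.

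Single arrays bear on these calls. Without stenotic side branch 3 the difference from the venous-flow vein was 0.91 (adjusted p = 0.228 by limma) and that from the artery 1.25 (adjusted p = 0.101). The first call was also lost without stenotic side branch 2 or venous-flow vein 1, 2 or 3, with adjusted p between 0.0550 and 0.0661, and the second without femoral artery 1 or 3, with adjusted p of 0.0694 and 0.0590. Scaling arrays by their medians, in place of their quantiles, gave 1.02 (adjusted p = 0.0596 by limma) against the vein and 1.27 (adjusted p = 0.0849) against the artery. Fitting only the groups compared also ended the call against the vein (adjusted p = 0.0892 by limma) and not that against the artery (adjusted p = 0.0306). The femoral artery and part of the venous-flow veins lie near the floor: with an offset of 16 in place of 50 the differences were 1.66 and 2.33, both called, and no fold is given.

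Marker genes of other cells were read as well, with samples as in the scanner files, and not all followed the order of this probe. The summed linear level of the 6 measured of 14 myeloid markers was 895 to 2430 in stenotic side branches, 445 to 659 in NIH veins, 567 to 627 in femoral arteries and 438 to 758 in venous-flow veins. Among them Tyrobp, an adaptor of myeloid receptors, differed between stenotic side branch and venous-flow vein by 2.22 (adjusted p = 0.00749 by limma), and C5ar1, the receptor of a complement peptide, by 1.98 (adjusted p = 0.0266). The value table turned both signs, to -1.44 for Tyrobp and -1.36 for C5ar1, neither called, with myeloid sums of 295 to 345 in stenotic side branches and 419 to 2275 in venous-flow veins. The 4 measured of 10 fibroblast markers summed to 10953 to 38158 in stenotic side branches, 9846 to 39393 in NIH veins, 728 to 3238 in femoral arteries and 2347 to 11172 in venous-flow veins. Col1a2 weighs most in this linear sum, with log2 levels of 8.91 to 15.21 over all arrays. Col3a1 ran from 5.83 to 11.85, Dcn from 5.73 to 6.29 and Thy1 from 5.71 to 7.27. In stenotic side branch minus venous-flow vein Col1a2 stood at 2.19, Thy1 at 0.80, Col3a1 at 0.17 and Dcn at 0.17, none called. The 3 measured of 10 smooth muscle markers summed to 181 to 191 in stenotic side branches, 175 to 242 in NIH veins, 201 to 246 in femoral arteries and 169 to 262 in venous-flow veins. Their median log2 levels were 5.88 (Tagln), 5.95 (Des) and 6.21 (Actg2), beside the floor of 5.65. In stenotic side branch minus femoral artery Des stood at -0.49, Actg2 at -0.12 and Tagln at 0.016, none called. All stenotic side branches lay below all arteries for the sum, and inside the range of the venous-flow veins. How many of all probes show this order was not counted. In the value table the smooth muscle sum was 129 to 189 in stenotic side branches and 98.8 to 111 in femoral arteries, the other way round. The fibroblast sum was there 2671 to 9325 in stenotic side branches and 2243 to 11067 in femoral arteries. Col1a2, a collagen chain, differed by 4.39 between stenotic side branch and femoral artery (adjusted p = 0.0243 by limma) and by 4.28 between NIH vein and femoral artery (adjusted p = 0.0160), and Thy1, a fibroblast surface protein, by 0.99 in the NIH vein comparison (adjusted p = 0.0317). The value table gave -0.59 and 1.79 for Col1a2 and 0.86 for Thy1, none called. Kdr itself differed between stenotic side branch and femoral artery by 1.95 (adjusted p = 0.0465 by limma), and by 0.72 in the value table, not called. The part of these cells in the Cxcl12 difference was not tested. In captured tissue, fewer cells of a type and less RNA per cell cannot be told apart.

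The other Cxcl12 probe (NM_022177) is assigned to another transcript record of the same gene, and the bases that either probe recognises were not used here. It read 8.52, 8.0 and 5.84 in the stenotic side branches. NIH veins read 5.73, 6.40, 8.17, 6.74 and 6.16, and the femoral arteries 6.07, 6.02 and 5.99. Venous-flow veins ran from 5.81 to 8.49 with a median of 7.09. High and low arrays occurred inside each vein group, by more than 2 on the log2 scale, while the 3 arteries were alike and low.

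None of the 6 differences of NM_022177 was called. The widest were 1.43 (-0.22 to 3.08; adjusted p = 0.278 by limma) for stenotic side branch minus femoral artery and -1.09 (-2.52 to 0.34; adjusted p = 0.863) for femoral artery minus venous-flow vein. Stenotic side branch minus venous-flow vein was 0.34 (-1.09 to 1.77). Leaving out 1 array at a time moved that value between -0.20 and 1.14. Its spread over the 17 arrays (SD 1.03) exceeded that of 92.8% of probes. Stenotic side branch 3 had the highest level of NM_001033883 and the lowest of its group for NM_022177, so the probes disagree on that array.

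Under the value table the Cxcl12 pattern had another shape. NM_001033883 read 4.98, 5.56 and 6.27 in the columns named stenotic side branch and 5.26 to 5.60 in the NIH veins. The columns named femoral artery read 5.05, 5.02 and 6.17, and those named venous-flow vein ran from 4.88 to 7.21 with a median of 5.90. The 3 highest arrays, at 6.69, 6.78 and 7.21, were those filed as stenotic side branches and stand in the columns of venous-flow veins 1 to 3. Stenotic side branch minus venous-flow vein was then -0.34 (-1.41 to 0.73; adjusted p = 0.925 by limma), opposite in sign to the value by the scanner files, and stenotic side branch minus femoral artery was 0.19 (-1.05 to 1.43; adjusted p = 1.00 by limma). 

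**Figure D2:**
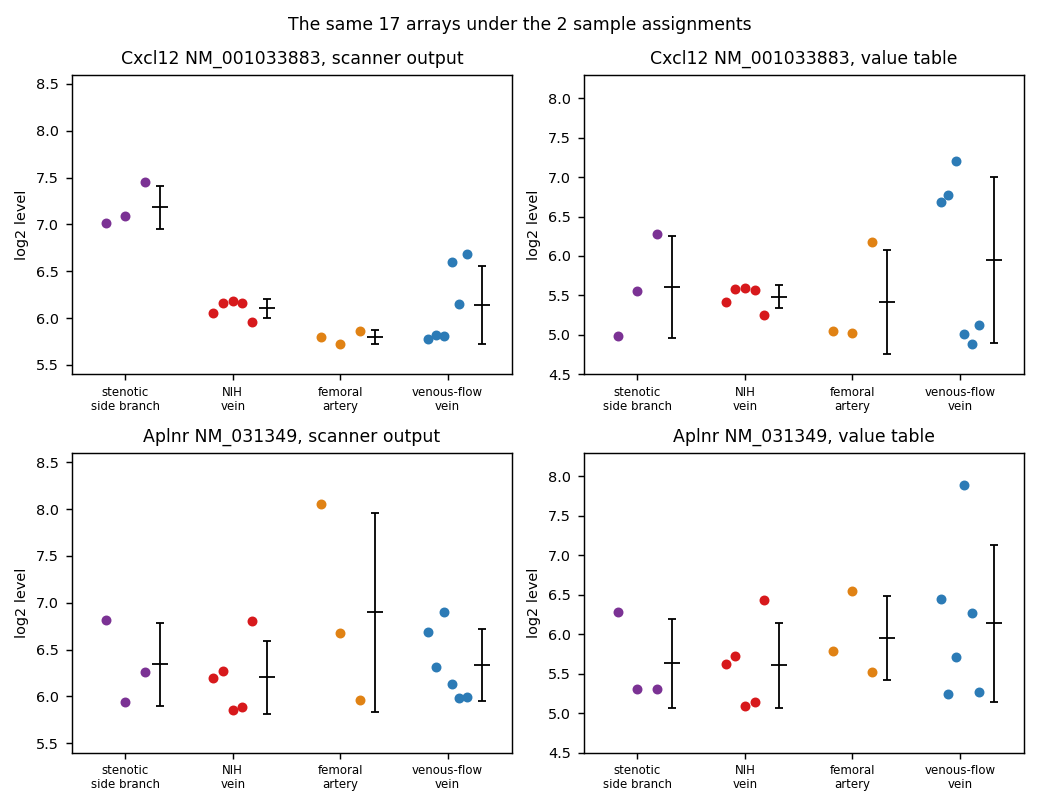
Log2 levels (vertical axes) of Cxcl12 NM_001033883 and Aplnr by vessel group (horizontal axes) with samples taken from the scanner files (left) or from the value table (right); points are arrays, bars mean ± SD. The 3 highest Cxcl12 arrays and the highest Aplnr array change group between the panels; the level scales come from different normalizations.

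Jag1 (NM_019147) read 6.48, 7.13 and 7.58 in the stenotic side branches and 7.08, 6.49, 6.48, 7.48 and 7.18 in NIH veins 1 to 5. The femoral arteries read 5.79, 6.69 and 5.98, and the venous-flow veins ran from 6.00 to 6.67 with a median of 6.5. Means followed the order stenotic side branch (7.06 ± 0.55), NIH vein (6.94 ± 0.44), venous-flow vein (6.43 ± 0.25) and femoral artery (6.15 ± 0.47), and all neighbours in this order overlapped. The artery, where Jag1 is known as an arterial gene, thus had the lowest mean, with 1 array inside the range of the veins.

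The Jag1 differences were 0.91 ± 0.32 for stenotic side branch minus femoral artery (0.23 to 1.59; adjusted p = 0.128 by limma) and 0.79 ± 0.28 for NIH vein minus femoral artery (0.18 to 1.40; adjusted p = 0.115 by limma, with 2.32% of probes called). Against the venous-flow vein they were 0.64 ± 0.28 in the stenotic side branch (0.05 to 1.22; adjusted p = 0.260) and 0.51 ± 0.24 in the NIH vein (0.01 to 1.02; adjusted p = 0.296), where 4 probes, or 0.0405%, were called by limma. Each of these intervals excludes 0 for the single probe, and none passed the adjustment. Without stenotic side branch 1 the first became 1.20 (adjusted p = 0.0474 by limma). With no background correction the 4 differences were 0.29, 0.24, 0.35 and 0.30 in the order given. Femoral artery minus venous-flow vein was -0.28 (-0.86 to 0.31).

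Taken from the value table, Jag1 had its highest mean in the NIH vein, at 6.59 ± 0.55, against 6.13 ± 0.90 in the venous-flow vein, a difference of 0.46 (-0.35 to 1.27; adjusted p = 0.773 by limma). The columns named stenotic side branch, at 5.72, 6.2 and 5.33, had the lowest mean there, and stenotic side branch minus NIH vein turned to -0.84 (-1.81 to 0.14), against 0.12 by the scanner files. Femoral artery minus venous-flow vein was -0.016 (-0.96 to 0.93).

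Cxcr4 (NM_022205), the receptor of Cxcl12, read 5.96, 5.93 and 5.83 in stenotic side branches and 5.70 to 5.98 in NIH veins. The femoral arteries read 6.44, 5.93 and 5.91, and the venous-flow veins 5.90 to 6.09. Femoral artery 1 was the single array more than 0.5 above the floor. The 6 differences ran from -0.22 (NIH vein minus femoral artery; -0.45 to 0.01) to 0.14 (femoral artery minus venous-flow vein; -0.08 to 0.36), and none was called. Without femoral artery 1 that last difference was -0.033. The offset compresses differences near the floor, so these intervals bound the measured scale and not the transcript. In the value table femoral artery minus venous-flow vein was -0.031 (-0.39 to 0.33), and the high array stands there in the column of venous-flow vein 4.

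Aplnr (NM_031349) read 6.81, 5.94 and 6.26 in stenotic side branches and 6.2, 6.27, 5.85, 5.88 and 6.81 in NIH veins. The femoral arteries read 8.05, 6.68 and 5.96, and the venous-flow veins ran from 5.98 to 6.90 with a median of 6.22. The artery held both the highest of the 17 arrays and one of the lowest, and all groups overlapped. Means followed the order femoral artery (6.90 ± 1.06), stenotic side branch (6.34 ± 0.44), venous-flow vein (6.33 ± 0.38) and NIH vein (6.2 ± 0.39), and no neighbours differed beyond their spread.

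Femoral artery minus venous-flow vein was 0.56 ± 0.37 for Aplnr (-0.23 to 1.36; adjusted p = 0.863 by limma), in a comparison in which 0 of 9879 probes were called and 486 had an unadjusted p under 0.05. It rested on femoral artery 1: without that array it was -0.014, and with arrays scaled by their medians it was 0.24. In unnormalized signal above background femoral artery 1 gave 61.7 intensity units for Aplnr, less than the 80.1 of femoral artery 2 and the 109 of NIH vein 5, and it is the array with the lowest median signal. Its rank correlation with the nearest other value table column, 0.680, is the lowest of the 17. In the value table the difference was -0.19 (-1.26 to 0.88); this array stands there as venous-flow vein 4.

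Cpe (NM_013128) read 6.17, 6.18 and 6.65 in stenotic side branches and 6.52, 6.80, 6.82, 6.56 and 6.30 in NIH veins. The femoral arteries read 6.18, 6.13 and 6.22, and the venous-flow veins ran from 5.85 to 7.04 with a median of 6.19. All 5 NIH veins lay above all 3 arteries, which 9.32% of probes did as well, and the difference of 0.42 (-0.10 to 0.94) had an adjusted p of 0.286 by limma. Its differences between other groups ran from -0.27 (stenotic side branch minus NIH vein) to 0.28 (NIH vein minus venous-flow vein), none called.

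The value table gave Cpe wider differences between the vessels. The columns named stenotic side branch read 6.41, 6.72 and 5.63, the NIH veins 5.77 to 6.46, the columns named femoral artery 5.60, 5.09 and 5.09, and those named venous-flow vein 5.52 to 6.24. Stenotic side branch minus femoral artery was 0.99 ± 0.27 (0.42 to 1.57; adjusted p = 0.262 by limma) and NIH vein minus femoral artery 0.91 ± 0.24 (0.39 to 1.42; adjusted p = 0.449). Groups did not overlap in either comparison, as for 8.44% and 3.68% of probes in this direction, and the NIH vein difference ranked 17 of 9879 by p in a comparison with 0 probes called and 1064 at an unadjusted p under 0.05.

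**Figure D3:**
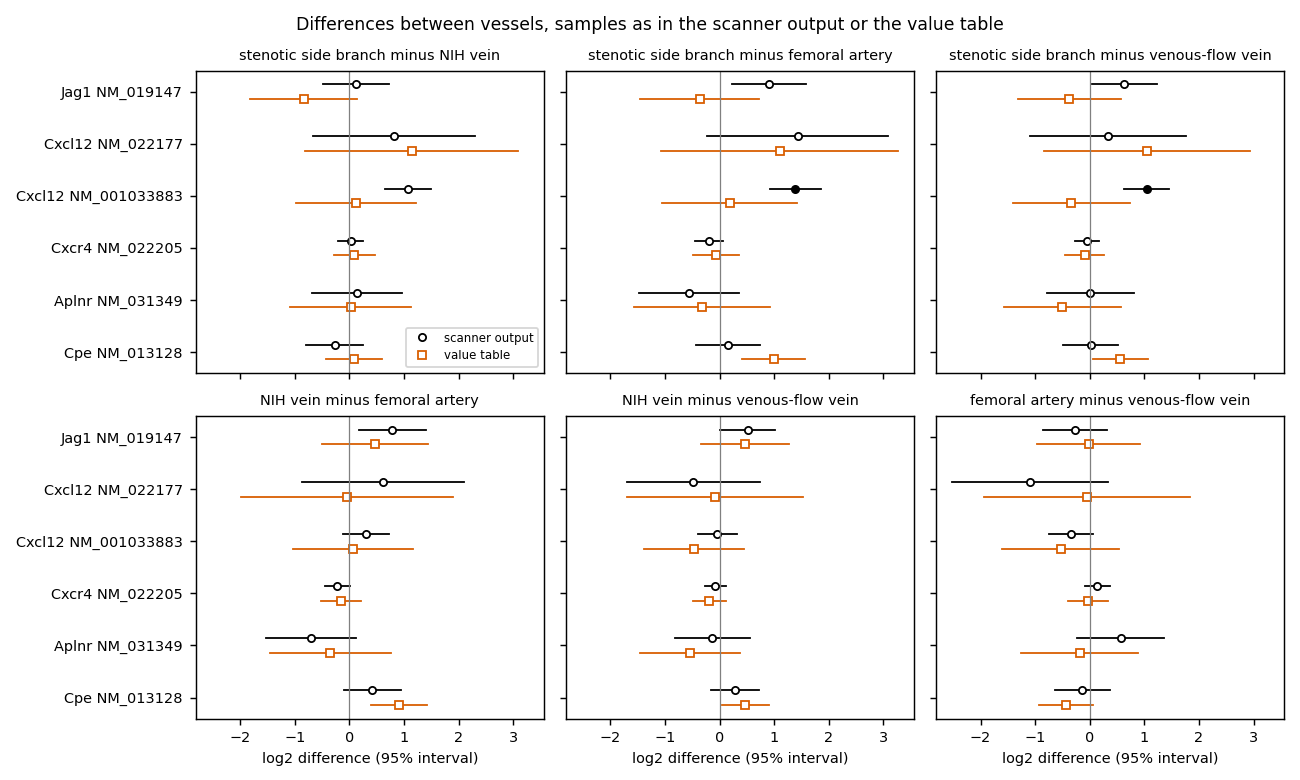
Log2 differences (horizontal axes) of the 6 probes in the 6 comparisons, with 95% intervals; black circles take samples from the scanner files, orange squares from the value table, and filled marks passed an adjusted p of 0.05. Only Cxcl12 NM_001033883 has filled marks, in stenotic side branch minus femoral artery and minus venous-flow vein.

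Vessel identity was read for both sample assignments from artery and vein, the lesion-free groups. In the scanner files the members known as arterial stood at femoral artery minus venous-flow vein differences of -0.28 for Jag1, -1.09 and -0.35 for the Cxcl12 probes and 0.14 for Cxcr4, and venous Aplnr at 0.56. In the value table the same 5 values were -0.016, -0.047, -0.53, -0.031 and -0.19. Thus Cxcr4 alone had the direction its name in mouse development gives by the scanner files, and Aplnr alone by the value table, and none was called. The direction of Cxcr4 rested on femoral artery 1, without which it turned.

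Among 23 genes listed as arterial 7 had a value (Gja4, Gja5, Acvrl1, Vegfc, Mgp, Igfbp3 and Gja1). Among 17 listed as venous 5 had a value (Nr2f2, Selp, Vcam1, Procr and Ptgs1). As filed for the scanner, 4 of 7 arterial genes were higher in the artery (median 0.03) and 5 of 5 venous genes lower (median -0.14), beside 53.9% of all probes higher (median 0.02). The value table gave 5 of 7 (median 0.14) and 2 of 5 (median 0.05), beside 42.8% of all probes higher (median -0.04). In the listed direction stood 9 of 12 genes by the scanner files and 7 of 12 by the value table. No gene of either list was called in this comparison, in which 0 of 9879 probes were called. Each gene counted alike, however small its difference. By the scanner files Nr2f2 (-0.14, SE 0.12) and Acvrl1 (-0.038, SE 0.14) had artery means of 5.89 and 5.93, near the floor of 5.65. These counts do not say which assignment is right, and no test of the difference between them was made.

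Gja5, the connexin of arterial endothelium, read 8.17, 9.56 and 8.62 in the femoral arteries, against 6.30 to 8.73 in the venous-flow veins, whose top array lies above 2 of the 3 arteries. The stenotic side branches read 6.27, 7.33 and 6.5 and the NIH veins 7.13 to 7.52, below all 3 arteries. The share of all probes that lie below the arteries in this way was not counted. Gja5 fell by 2.08 in the stenotic side branch against the artery (adjusted p = 0.0472 by limma), where 1.86% of probes were called. This call was lost without any 1 of the 6 arrays compared (lowest adjusted p = 0.0641 by limma). The value table gave -1.16 (adjusted p = 1.00 by limma). Nr2f2, the transcription factor of venous fate, differed by -0.14 between artery and venous-flow vein by the scanner files and by 0.10 by the value table. Igfbp3, which binds insulin-like growth factors, was higher in the NIH vein than the artery by 2.92 (adjusted p = 0.0304 by limma), and 2.79 above the venous-flow vein (adjusted p = 0.0738); the value table gave 2.82 and 2.97, neither called, and the call was kept in 3 of 8 fits that left out 1 array. Gja1, another connexin, differed by -1.37 between stenotic side branch and venous-flow vein (adjusted p = 0.199 by limma), and by 1.31 in the value table. In femoral artery minus venous-flow vein Selp, an adhesion receptor of venules, stood at -0.16 by the scanner files and 0.05 by the value table. Procr, the endothelial protein C receptor, stood there at -0.12 and 0.091. Against the venous-flow vein, Selp differed by 0.72 in the NIH vein (adjusted p = 0.248 by limma) and Procr by -0.47 in the stenotic side branch (adjusted p = 0.272). Selp stood at 1.00 and Procr, its sign turned, at 0.75 in the value table (adjusted p = 0.667 by limma).

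**Figure D4:**
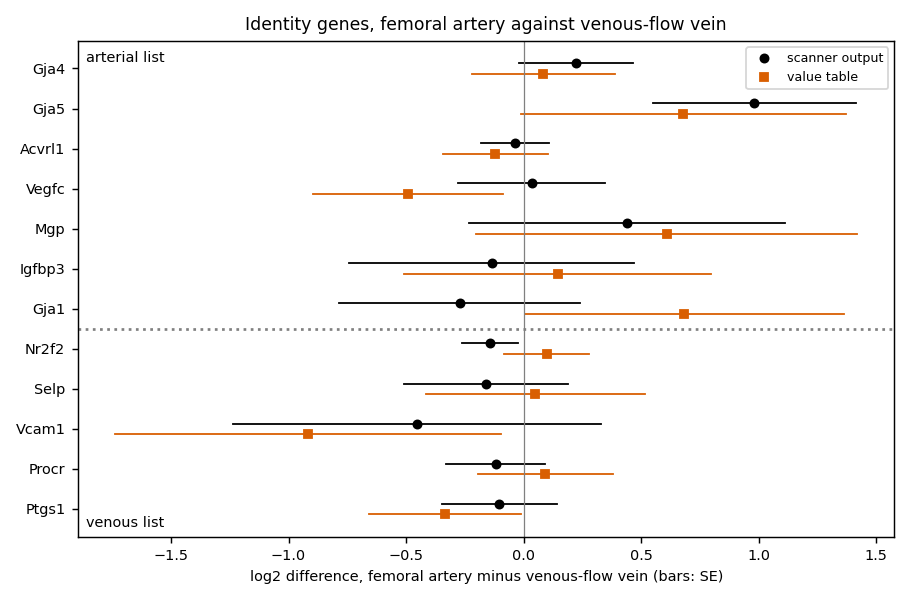
Log2 differences, femoral artery minus venous-flow vein (horizontal axis), of the 12 measured identity genes (vertical axis; arterial list above the dotted line, venous list under it), with SE; black circles take samples from the scanner files, orange squares from the value table. The 5 venous genes lie left of 0 by the scanner files and 2 of them by the value table.

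Of the 33 other Notch pathway genes listed, 8 had a value. Against the venous-flow vein 4 of them were higher in the NIH vein and 3 in the stenotic side branch with samples as in the scanner files (medians 0.0051 and -0.024), beside medians of 0.03 and 0.02 over all probes. None of them was called in these comparisons, beside 0.0405% and 0.405% of all probes. Notch2, a receptor for Jag1, averaged 5.88 ± 0.15 in NIH veins and 5.76 ± 0.06 in stenotic side branches, against 6.51 ± 0.46 in venous-flow veins, with differences of -0.63 (adjusted p = 0.175 by limma) and -0.75 (adjusted p = 0.153). Its sign in the stenotic comparison turned by the value table, to 0.32. Numb, an inhibitor of Notch, had the smallest p for artery against venous-flow vein, with 0.61 (adjusted p = 0.863 by limma) by the scanner files and -0.34 by the value table.

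One Notch pathway gene was called. Psen2, a catalytic subunit of the gamma-secretase that cuts Notch receptors, differed between NIH vein and femoral artery by 2.61 (adjusted p = 0.0479 by limma), at 8.10 to 10.63 against 6.44 to 7.20, with no overlap, beside 9.32% of probes with all NIH veins above all arteries and 2.32% called. The value table gave 1.70 (adjusted p = 0.449). The call was kept in 2 of the 8 fits that left out 1 array.

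Of 31 other chemokine and apelin genes 12 had a value, and none was called in any comparison by the scanner files or by the value table. Of all probes, 0 to 2.32% were called per comparison by the scanner files and 0 to 0.283% by the value table. So few calls over all probes leave none of 12 uninformative about these genes. Between stenotic side branch and venous-flow vein, 5 of the 12 genes were higher and 7 lower by the scanner files (median -0.054), beside the median of 0.02 over all probes. Apln, a ligand of Aplnr, averaged 6.44 ± 0.58 in stenotic side branches, against 5.82 ± 0.08 in venous-flow veins (difference 0.62; adjusted p = 0.110 by limma), and the value table gave -0.32. Ackr3, the scavenging receptor of Cxcl12, differed by -0.36 in this comparison (adjusted p = 0.483) and by 0.97 in the value table (adjusted p = 0.246 by limma). Grk6, a kinase that desensitizes receptors such as Cxcr4, differed by 0.30 between NIH vein and venous-flow vein (adjusted p = 0.161), and the membrane-bound chemokine Cx3cl1 by 0.69 between artery and venous-flow vein (adjusted p = 0.863). In the value table these were 0.14 and 0.43.

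Of 21 other peptide-processing genes 8 had a value and none was called by either assignment. Per comparison, 0 to 2.32% of all probes were called by the scanner files and 0 to 0.283% by the value table. With the scanner files, 3 of the 8 genes were higher and 5 lower in the NIH vein against the venous-flow vein, and likewise in the stenotic side branch. Over all probes 57.0% and 53.7% were higher in these comparisons. Scg5, the chaperone of a prohormone convertase, averaged 7.82 ± 1.78 in NIH veins, against 10.57 ± 1.66 in venous-flow veins (difference -2.75; adjusted p = 0.181 by limma). Pam, which amidates peptides after Cpe has trimmed them, differed by 0.60 between stenotic side branch and venous-flow vein (adjusted p = 0.249). Pcsk6, a convertase that cuts precursors before Cpe acts, differed by -0.93 between artery and venous-flow vein (adjusted p = 0.863). Scg5 stood at -2.26, Pam at -0.17 and Pcsk6 at -0.22 in the value table, so that the sign of Pam turned.

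Of 29 ephrin and guidance genes 2 had a value, and Efnb1, a membrane-bound ligand of Eph receptors, was called in 3 comparisons by the scanner files. It read 6.41, 6.40 and 6.27 in stenotic side branches and 6.23 to 6.46 in NIH veins. The femoral arteries read 5.75, 5.92 and 5.78 and the venous-flow veins 5.83 to 6.11, so both groups under arterial flow in the vein lay above both others, as for 0.324% of probes. Efnb1 differed by 0.54 between stenotic side branch and artery (adjusted p = 0.0243 by limma), by 0.40 between stenotic side branch and venous-flow vein (adjusted p = 0.0416), and by 0.50 between NIH vein and artery (adjusted p = 0.0154), in comparisons with 1.86%, 0.405% and 2.32% of probes called. All but the NIH vein value turned sign by the value table, at -0.080, -0.22 and 0.49. Leaving out 1 array kept 2 of 6, 2 of 9 and 6 of 8 of these calls. In the same order, 3, 3 and 5 of 7 alternative fits kept them, the value table counted among the 7. All artery and venous-flow vein levels of Efnb1 lay within 0.5 of the floor, where the offset compresses differences.

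Across the 17 arrays the members did not move as 1 group. Of 15 relations between the 6 probes, that of Cxcr4 with Aplnr had the highest correlation, with Pearson r of 0.812 (permutation p = 0.00142, adjusted 0.0213 over the 15) and Spearman rho of 0.672 (permutation p = 0.00402, adjusted 0.0603). Without the 2 arrays farthest from the median of Cxcr4, r was 0.603, and both genes peak on femoral artery 1. It was 0.884 over the 11 arrays with a shared background and 0.50 over the other 6. The Cxcl12 probes correlated with r of 0.506 (permutation p = 0.0354, adjusted 0.177) and rho of 0.527 (permutation p = 0.0311, adjusted 0.202). Arrays share background values and may share rats, so they are not independent.

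As a description over the same 17 arrays and 2873 other named genes, the genes most like each member were found by Pearson correlation. Jag1 was closest to Ubqln1 (0.937), Yipf3 (0.933) and C1qbp (0.904), and Aplnr to Pced1bl1 (0.972), Kcnj3 (0.968) and Nt5c3b (0.959). Cxcl12 NM_022177, its probe of higher mean, had Ms4a6bl1 (0.791) and Col3a1 (0.736) among its most similar genes, the second a collagen of the fibroblast marker list. Cxcr4 was closest to Itpkb (0.947), Dbx1 (0.938) and Nrgn (0.935), which dropped to 0.783, 0.773 and 0.670 without the 2 arrays farthest from its median. Cpe was closest to Zdhhc2 (0.838), Mt1 (0.838) and Sdha (0.815).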

How the data were processed

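The series holds 17 single-colour arrays in 4 groups. Per the file headers, the deposited scanner output gives mean signal and mean background per spot as intensity, not normalized. Which scanner and software made them was not found in the labels or headers. For 10000 of 41372 probe spots (9879 probes) the authors deposited a table of log2 values. Each of its columns has a median of 5.51 and ranks spots as 1 array's scanner signal does; how the spots were chosen and the values normalized is unknown.

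Signal was corrected with the normal-exponential model on the mean signal and background columns (offset 50), log2 transformed, quantile normalized and averaged per probe with limma 3.58.1 in R 4.3.3. One model with a mean per group was fitted to all 17 arrays, 6 contrasts were taken, and 2-sided p-values were adjusted by Benjamini-Hochberg over all 9879 probes; called means an adjusted p under 0.05. Intervals are 95% intervals of the single contrast, SE is that of the contrast and SD is over arrays. The value table went through the same model. Other tables were made with Python 3.11.15, pandas 2.3.3, numpy 2.4.6 and scipy 1.17.1, and plots with matplotlib 3.10.9. Correlations used 100000 permutations.

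Accessions were matched to symbols through a RefSeq table: 3119 spots (31.2%) matched 1 symbol, and genes carry no coordinates from it, since no source names the build of the array. In gene lists the probe of highest mean stands for a gene. Named genes are all members, the list member with the smallest p in each comparison with the venous-flow vein, every called list member, all measured identity genes and the 3 genes most like each member, of which 1 is not reported here. Members, lists and tests were chosen with earlier results of these data known.

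To see whether replicate numbers pair the arrays, deviations from the group means were correlated between equal-numbered arrays; the correlations lay between -0.609 and 0.321, and numbers were not used as pairs. Regions cannot be tied to rats, and p-values measure the spread between regions. The number of arrays limits the precision. The method was tested on simulated data. No slide or scan date was found in the headers. Alternatives were the value table, plain background subtraction, no background correction, an offset of 16, median scaling, the 4940 probes of higher mean, only the groups compared, the replicate number as a block, and leaving out each array.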

Additional observations from a re-analysis of the deposited data

Results flagged for a closer look

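Of 18 groups of 5 or 6 arrays examined over the 6 probes and both sample assignments, 3 held an array far from the rest, and chance marks about 1 in 20. By the scanner files Cxcr4 in venous-flow vein 3 stood at 6.09, with the next array at 5.97, a gap of 0.634 of the group's range, though within 0.5 of the floor. By the value table Cxcr4 in the column of venous-flow vein 4 stood at 5.96, next to 5.26, a gap of 0.782 of the range; this is the array filed as femoral artery 1, on which Aplnr was highest as well. Cpe in the value table column of venous-flow vein 3 stood at 6.24, next to 5.66, a gap of 0.805 of the range; this is the array filed as stenotic side branch 3, which has the highest Cxcl12 NM_001033883 level. None of these genes was called between vessels in either assignment.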

How the results depend on the processing

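Of 282 member differences recomputed under 8 alternatives, 260 kept direction and side of the threshold, 16 turned sign, among them 1 called value (Cxcl12 NM_001033883 in stenotic side branch minus venous-flow vein, by the value table), and 6 lost the call with their sign kept; causes were not tested. Cxcr4 has no value among probes of higher mean. Slide and scan date could not be run as a block, and shared background, low signal and near-floor levels limit all values.

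By the value table, stenotic side branch minus venous-flow vein was -0.38 for Jag1, -0.34 for Cxcl12 NM_001033883 and -0.51 for Aplnr; stenotic side branch minus NIH vein was -0.84 for Jag1 and 0.088 for Cpe; femoral artery minus venous-flow vein was -0.031 for Cxcr4 and -0.19 for Aplnr; NIH vein minus femoral artery was -0.042 for Cxcl12 NM_022177; stenotic side branch minus femoral artery was -0.36 for Jag1 and, with the call lost, 0.19 for Cxcl12 NM_001033883. Efnb1 in the stenotic side branch turned to -0.22 against the venous-flow vein and -0.080 against the artery. Venous identity genes lower in the artery numbered 2, not 5. Without background correction Jag1 in femoral artery minus venous-flow vein was 0.058, and with an offset of 16 Cxcl12 NM_001033883 in NIH vein minus venous-flow vein was 0.0067. Median scaling gave -0.10 for Cpe in stenotic side branch minus venous-flow vein, -0.080 for Jag1 in stenotic side branch minus NIH vein, and took Cxcl12 NM_001033883 out of the calls at 1.02 against the venous-flow vein and 1.27 against the artery. Fitting only the groups compared gave 1.04 with an adjusted p of 0.0892 by limma for that probe in stenotic side branch minus venous-flow vein.

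The numbers share only a label. With the replicate number as a block Cxcl12 NM_001033883 was 1.25 against the venous-flow vein (adjusted p = 0.0617 by limma) and 1.39 against the artery (adjusted p = 0.0561), and it was 0.070 in NIH vein minus venous-flow vein; Aplnr was -0.13 and Cpe -0.031 in stenotic side branch minus venous-flow vein. With this block 0, 1, 1, 0 and 1 probes were called in NIH vein minus venous-flow vein, stenotic side branch minus venous-flow vein, stenotic side branch minus NIH vein, NIH vein minus femoral artery and stenotic side branch minus femoral artery.

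NIH vein minus venous-flow vein had 4 called probes, and 0 by the value table, 16 with median scaling, 9 among probes of higher mean and 2 with only the groups compared. Stenotic side branch minus venous-flow vein had 40, and 17 by the value table, 87 with subtraction, 114 with the offset of 16, 5 with median scaling, 71 among probes of higher mean and 88 with only the groups compared. Stenotic side branch minus NIH vein had 9, and 28 by the value table, 3 with subtraction, 3 with the offset of 16, 3 with median scaling and 0 with only the groups compared. NIH vein minus femoral artery had 229, and 0 by the value table, 97 without background correction, 344 with the offset of 16, 51 with median scaling and 652 among probes of higher mean. Stenotic side branch minus femoral artery had 184, and 19 by the value table, 1 with median scaling and 59 with only the groups compared.

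Leaving out 1 array at a time, these counts ran, in the same order, from 1 to 284, 8 to 132, 1 to 11, 0 to 546 and 1 to 533, and femoral artery minus venous-flow vein stayed at 0. Cxcl12 NM_001033883 ran from 0.91 to 1.15 in stenotic side branch minus venous-flow vein, 1.25 to 1.47 in stenotic side branch minus femoral artery and -0.11 to 0.070 in NIH vein minus venous-flow vein. In stenotic side branch minus venous-flow vein Cxcl12 NM_022177 ran from -0.20 to 1.14, Aplnr from -0.23 to 0.21 and Cpe from -0.15 to 0.16. In stenotic side branch minus NIH vein Jag1 ran from -0.14 to 0.41, Cxcr4 from -0.014 to 0.066 and Aplnr from -0.10 to 0.34. In femoral artery minus venous-flow vein Cxcr4 ran from -0.033 to 0.23, Aplnr from -0.014 to 1.03 and Cpe from -0.23 to 0.0039. In stenotic side branch minus femoral artery Aplnr ran from -1.03 to 0.021 and Cpe from -0.0059 to 0.24.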
